A study of Mus musculus with 15 samples.

Results

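Matrix metalloproteases (Mmp), ADAM and ADAMTS proteases and their Timp inhibitors were examined in the anterior prostate of mice that carried a prostate-directed mutation or did not, with and without castration. The members were the genes whose name on the array began with Mmp, Adam, Adamts or Timp and a number. There were 74 such genes, read by 140 probes, of 28902 gene names and 45281 probes on the array. They comprised 23 Mmp, 29 Adam, 18 Adamts and 4 Timp genes.

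Matrix metalloproteases are zinc-dependent enzymes that cut collagens, laminins and other proteins around cells, and most are made as inactive precursors that another protease must open. ADAMs sit in the cell membrane and release growth factors, cytokine receptors and adhesion molecules from it, and ADAMTS enzymes are secreted and cut procollagens and proteoglycans. The Timp proteins bind the active site of these enzymes. In the prostate, this system takes part in gland growth, in regression after androgen loss and in tumour spread.

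Total RNA of 15 mice was hybridised to single-colour Illumina bead arrays, 1 array per mouse. All 3 groups shared 1 copy of the allele named CE2, a knock-in at an endogenous prostate locus that drives a tamoxifen-inducible Cre recombinase, so even the control mice lacked 1 normal copy of that locus. Control mice (CE2/+, n = 3) were intact. Mutant mice also carried floxed alleles (f/f), which Cre can delete, and were intact (n = 6) or castrated (n = 6). The labels state no drug treatment. The sources used here do not give the ages, the time since castration, or whether and when Cre was induced. Whether a floxed allele was lost, and in what share of cells, was not measured.

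Values are log2 intensities. A probe was tested if it exceeded a background limit, between 7.27 and 7.39 on the 15 arrays, on at least 3 of them. The brightest probe stood for each gene, and a gene was called at a limma adjusted p under 0.05 over all 16632 tested genes. The 3 control arrays were high in prostate secretion genes (7 tested genes summing to intensities of 91742 to 150829). The sums on the mutant arrays lay lower and ranged from 1173 to 61168. Of the 7 genes, 3 were called lower and 1 higher in mutant intact (Spink1, 13.3-fold), and 5 lower and 0 higher in mutant castrated. Seminal vesicle transcripts were high in 2 arrays of each group, and without those 6 arrays a single control array remained. Because whole tissue was measured, fewer cells of a type and less RNA per cell cannot be told apart in any value below.

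Of the 74 genes, 44 passed the background filter: 4 of 4 Timp, 16 of 23 Mmp, 12 of 29 Adam and 12 of 18 Adamts genes. The other 30 were above the limit on 0 to 2 arrays and were not tested. They included 14 of the 18 ADAMs known from testis and epididymis. Among the rest were the neutrophil collagenase Mmp8 (above the limit on 0 arrays), the enamel protease Mmp20 (2 arrays), the neuronal Adam11 and Adam22, and the procollagen proteases Adamts3 and Adamts14. A gene that entered through the group in which it was high had to differ between groups, so counts over the 44 describe those genes and not the whole family.

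In mutant intact prostate, 11 of the 44 tested genes rose against control and 6 fell, with 27 not called. The higher calls were 25.0% of the tested members, against 18.3% of all tested genes, and the lower calls 13.6% against 25.4%. Over both directions the shares were 38.6% and 43.7%, so in this comparison calls were no more common among these genes than among all genes. The median log2 fold change was 0.27, against -0.04 for all genes. In mutant castrated prostate 17 rose and 7 fell against the same control arrays (38.6% and 15.9%, against 20.1% and 24.7% of all genes), or 54.5% against 44.7% over both directions. Of the genes, 10 were called higher and 6 lower in both comparisons, which share their controls. Between mutant castrated and mutant intact prostate no gene of the array was called (0% of 16632 by limma, with 2618 at an unadjusted p under 0.05). That included all 44 members, of which 8 had an unadjusted p under 0.05.

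The families differed in their counts. In mutant intact prostate, 3 of 4 Timp and 6 of 16 Mmp genes rose (75.0% and 37.5%), but 1 of 12 Adam and 1 of 12 Adamts genes did (8.3% each). Of all tested genes 18.3% rose. Among the genes that fell were 3 Mmp (18.8%) and 3 Adam genes (25.0%), and 0 Timp and 0 Adamts genes, against 25.4% of all genes. The median log2 fold change in mutant intact was 2.01 for Timp, 0.65 for Mmp, 0.05 for Adam and 0.09 for Adamts genes. In mutant castrated, 3 of 4 Timp, 9 of 16 Mmp, 2 of 12 Adam and 3 of 12 Adamts genes rose, against 20.1% of all genes. There 4 Mmp, 3 Adam, 0 Timp and 0 Adamts genes fell, against 24.7%.

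**Figure D1:**
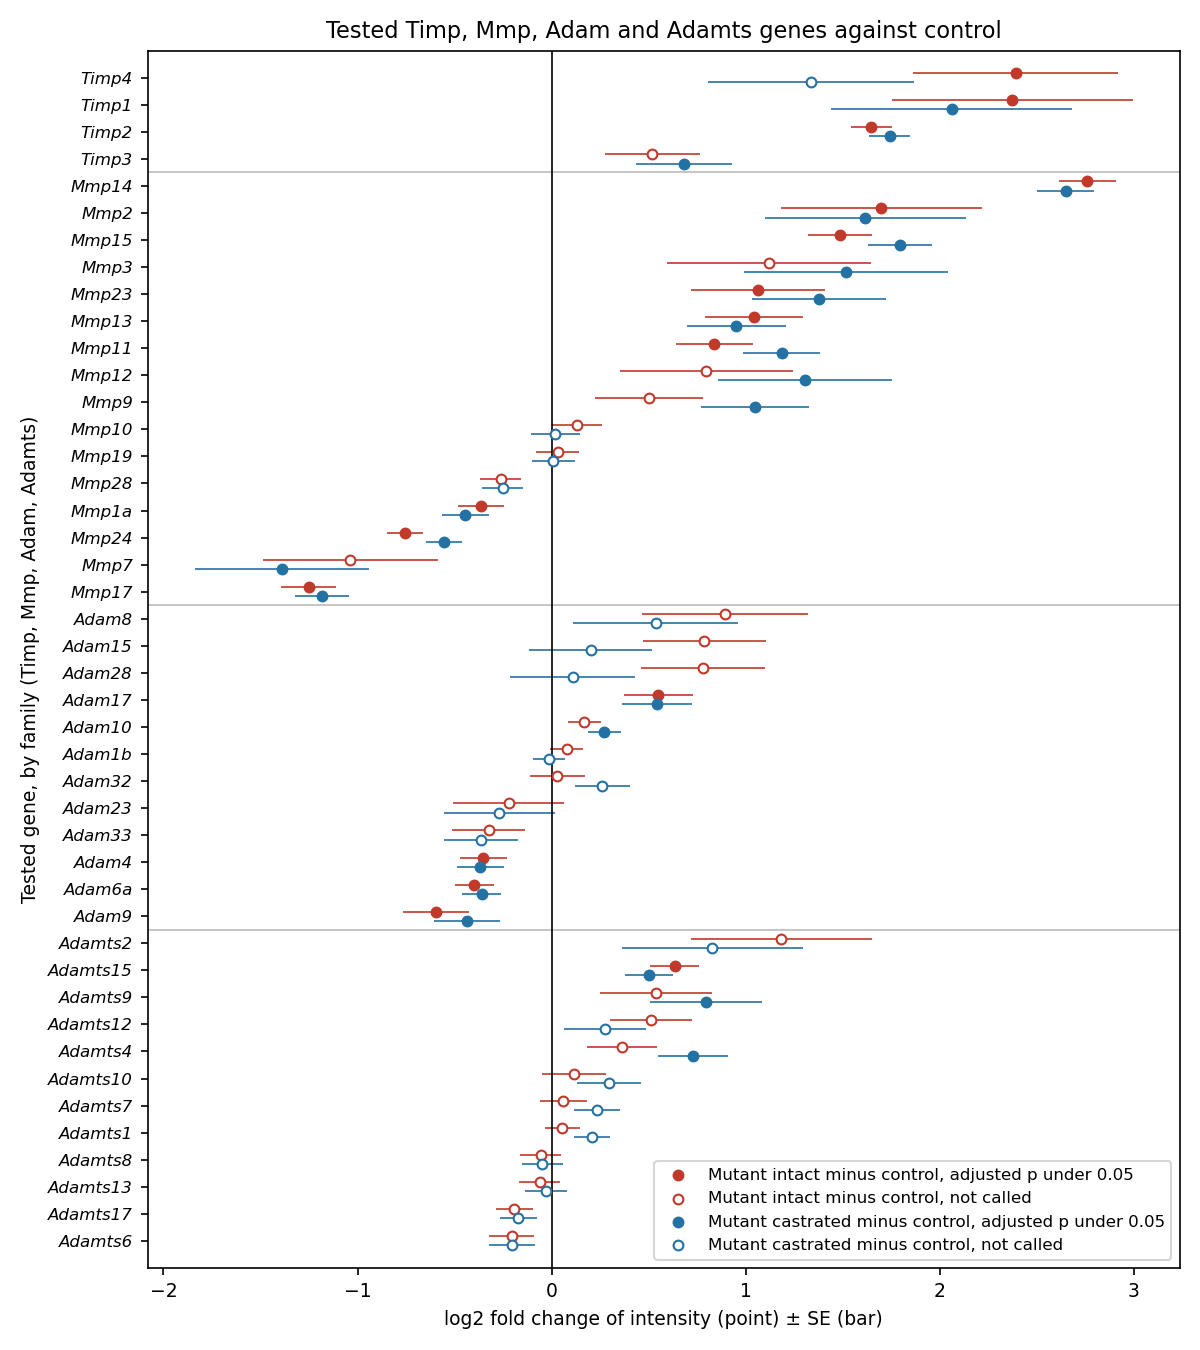
Log2 fold change of intensity (point, with SE as bar) of each of the 44 tested genes, by family, for mutant intact (red, n = 6) and mutant castrated (blue, n = 6) against the same control arrays (n = 3). Filled points were called. The Timp genes and the upper part of the Mmp genes lie to the right of 0, Mmp17, Mmp7 and Mmp24 lie to the left, and most Adam and Adamts genes lie near 0.

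All 4 tested genes of the membrane-type matrix metalloproteases were called, 2 higher and 2 lower, in both mutant groups. Mmp14, which cuts collagen at the cell surface and activates pro-Mmp2, measured 9.52, 9.67 and 9.41 in control. It lay between 11.98 and 12.71 in mutant intact (median 12.28) and between 11.97 and 12.55 in mutant castrated (median 12.14). All 12 mutant arrays exceeded the control arrays by more than 2 log2 units. The increase was 6.77-fold in mutant intact (log2 fold change 2.76, SE 0.15, with an adjusted p of 1.99e-09) and 6.27-fold in mutant castrated. A second Mmp14 probe was above the limit on 5 arrays and was not called (log2 fold change 0.10, limma adjusted p = 0.353), so the increase rests on 1 probe.

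Mmp15, a second transmembrane collagenase, measured 10.79, 11.12 and 10.68 in control, 11.70 to 12.64 in mutant intact (median 12.43) and 12.54 to 12.80 in mutant castrated (median 12.65). The mutant arrays again lay apart from control. It rose 2.80-fold in mutant intact (log2 fold change 1.48, SE 0.16, with an adjusted p of 3.82e-06) and 3.47-fold in mutant castrated. The 2 members that fell differ in structure. Mmp17 is held by a lipid anchor rather than a transmembrane segment, and Mmp24 is a transmembrane protease best known from neurons. Mmp17 measured 8.60, 8.73 and 8.38 in control, 7.16 to 7.75 in mutant intact (median 7.24) and 7.18 to 7.76 in mutant castrated (median 7.37). It exceeded the background limit on only 2 of 6 mutant intact and 4 of 6 mutant castrated arrays, and the 2.38-fold decrease in mutant intact (log2 fold change -1.25, SE 0.14, with an adjusted p of 4.46e-06) is therefore understated. Mmp24 measured 10.72, 10.58 and 10.80 in control, 9.84 to 10.05 in mutant intact (median 9.96) and 9.96 to 10.34 in mutant castrated (median 10.17). It fell 1.69-fold in mutant intact (log2 fold change -0.75, SE 0.09, with an adjusted p of 1.02e-05). Another Mmp24 probe also fell (log2 fold change -0.44, limma adjusted p = 0.000104). Smooth muscle markers fell beside these genes, 9 of 9 tested, from summed intensities of 73154 to 83748 in control to 5816 to 32515 in mutant intact. Their part in the decreases of Mmp17 and Mmp24 was not tested.

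The 120 bases before the start of Mmp14 and Mmp15 are shown here because these were the Mmp genes that rose by the largest called folds with groups that did not overlap. Sequences are from RefSeq, build GRCm38.p6, 5′ to 3′ on the gene's own strand, and capitals mark the GC box words GGGCGG and CCGCCC, bound by Sp-family factors.
Mmp14 (chr14:54431478-54431597, plus strand): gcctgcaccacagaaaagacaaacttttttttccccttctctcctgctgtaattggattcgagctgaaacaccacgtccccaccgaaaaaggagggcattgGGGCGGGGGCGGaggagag
Mmp15 (chr8:95352176-95352295, plus strand): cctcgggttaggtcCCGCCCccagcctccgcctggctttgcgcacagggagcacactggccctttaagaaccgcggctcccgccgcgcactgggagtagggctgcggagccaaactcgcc
The build behind the array's own annotation is not stated.

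**Figure D2:**
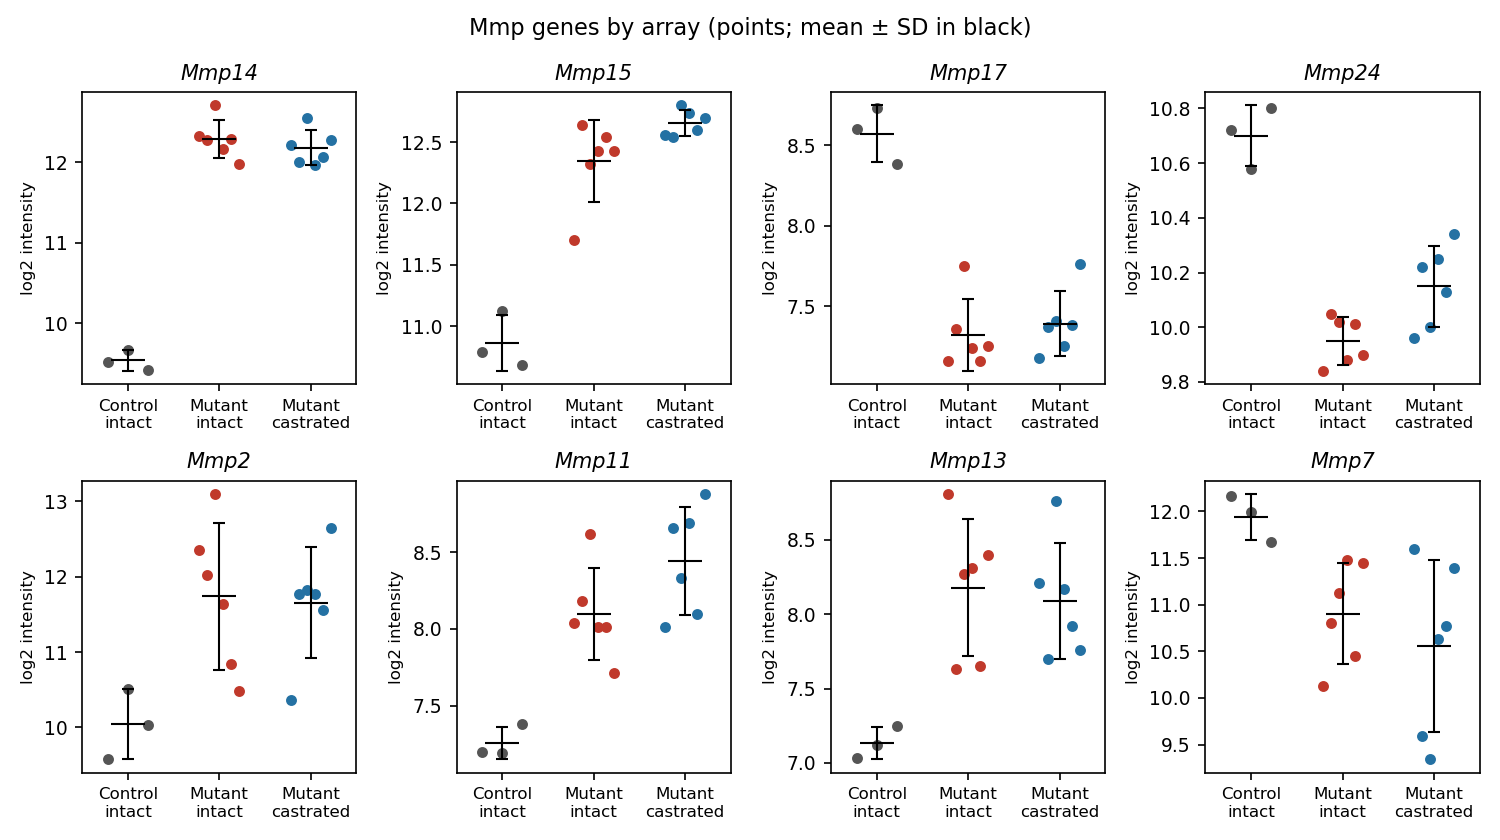
Log2 intensity of 8 Mmp genes on each array (points), by group (control intact n = 3, mutant intact n = 6, mutant castrated n = 6), with mean ± SD in black. Mmp14 and Mmp15 lie higher and Mmp17 and Mmp24 lower on all 12 mutant arrays than on the control arrays, and Mmp2 spreads widely within both mutant groups.

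The gelatinases cut denatured collagen and basement membrane collagen. Mmp2, largely a product of stromal cells and activated by Mmp14, measured 9.58, 10.51 and 10.03 in control. It lay between 10.48 and 13.10 in mutant intact (median 11.83) and between 10.36 and 12.64 in mutant castrated (median 11.77). The lowest array of each mutant group fell within the control range. Mmp2 rose 3.25-fold in mutant intact (log2 fold change 1.70, SE 0.52, with an adjusted p of 0.0151) and 3.07-fold in mutant castrated (limma adjusted p = 0.0197). Without control replicate 1 these adjusted p-values were 0.076 and 0.0921, and without control replicate 3 the second was 0.0562. Without the castrated animals with IDs above 4000 the second was 0.12. Mmp9, known from neutrophils and macrophages, measured 7.45, 8.21 and 7.70 in control, 7.89 to 8.74 in mutant intact (median 8.27) and 8.51 to 9.87 in mutant castrated (median 8.62). The mutant intact arrays overlapped control and the castrated arrays did not. Mmp9 rose 2.07-fold in mutant castrated (log2 fold change 1.05, SE 0.28, limma adjusted p = 0.00642) and was not called in mutant intact (0.50, limma adjusted p = 0.162). Set directly against each other, the mutant groups differed by 0.55 (SE 0.23, limma adjusted p = 0.26), which was not called. Castrated replicate 6 held the highest Mmp9 value, and without it the mutant intact increase passed (adjusted p = 0.0468). Of 10 neutrophil markers 6 were tested, of which 3 rose in mutant intact and 4 in mutant castrated, with S100a8 at least 23.3-fold and 41.9-fold higher. Their sum lay between 784 and 925 in control, 2844 and 16253 in mutant intact, and 6518 and 18578 in mutant castrated. Ngp, Ly6g, Mpo and Fpr1 were not tested. The part of neutrophils in the Mmp9 values was not tested.

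Mmp23, a membrane-bound protease, measured 8.42, 8.76 and 8.79 in control, 9.05 to 10.71 in mutant intact (median 9.57) and 9.12 to 10.75 in mutant castrated (median 10.11), with no overlap with control. It rose 2.09-fold in mutant intact (log2 fold change 1.06, SE 0.35, with an adjusted p of 0.0212, or 0.0878 without control replicate 1) and 2.60-fold in mutant castrated. Mutant intact replicate 3 was the highest intact array for both Mmp2 and Mmp23 and castrated replicate 6 the highest castrated array. These were also the highest arrays of their groups for summed fibroblast markers (10 of 10 tested), at intensities of 48368 and 59906. The same arrays were highest of their groups for summed smooth muscle markers (32515 and 21368) and seminal vesicle transcripts (141975 and 21720) as well. The fibroblast sum lay between 16089 and 23072 in control, 15824 and 48368 in mutant intact, and 12520 and 59906 in mutant castrated. Of its 10 genes 2 rose in mutant intact. The part of any of these sums in the Mmp2 and Mmp23 values was not tested.

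Of the 23 Mmp genes, 10 lie together on chromosome 9 in the mouse annotation. Of these 6 were tested: the collagenases Mmp13 and Mmp1a, the stromelysins Mmp3 and Mmp10, the macrophage elastase Mmp12 and the matrilysin Mmp7. AP-1, the Fos and Jun family of transcription factors, is the best known activator of such genes. The 120 bases before the start of each are shown because all 6 hold the AP-1 word (TGACTCA, or TGAGTCA on the other strand) in this stretch. Capitals mark that word and the TATA word TATAAA.
Mmp13 (chr9:7272394-7272513, plus strand): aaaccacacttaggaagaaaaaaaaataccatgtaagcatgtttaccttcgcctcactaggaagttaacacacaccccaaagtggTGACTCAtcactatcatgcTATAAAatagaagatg
Mmp3 (chr9:7445702-7445821, plus strand): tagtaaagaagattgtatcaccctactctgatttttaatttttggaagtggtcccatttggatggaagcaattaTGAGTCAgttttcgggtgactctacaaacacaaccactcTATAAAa
Mmp12 (chr9:7347254-7347373, plus strand): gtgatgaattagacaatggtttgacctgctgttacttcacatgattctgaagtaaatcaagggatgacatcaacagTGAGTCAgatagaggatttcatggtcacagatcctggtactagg
Mmp1a (chr9:7464021-7464140, plus strand): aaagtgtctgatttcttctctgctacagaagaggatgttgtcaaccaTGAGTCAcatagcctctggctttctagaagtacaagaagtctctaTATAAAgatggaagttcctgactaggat
Mmp7 (chr9:7691970-7692089, plus strand): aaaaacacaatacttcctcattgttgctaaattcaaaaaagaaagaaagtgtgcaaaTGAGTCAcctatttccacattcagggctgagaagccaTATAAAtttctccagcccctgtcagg
Mmp10 (chr9:7502222-7502341, plus strand): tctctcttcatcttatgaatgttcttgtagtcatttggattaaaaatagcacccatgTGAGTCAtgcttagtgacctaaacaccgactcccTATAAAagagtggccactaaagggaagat
The word begins 35 bases before the start in Mmp13, 46 in Mmp3, 44 in the second listed start of Mmp12, 73 in Mmp1a and 63 in both Mmp7 and Mmp10. Windows of 300 bases around the start were at hand for 45 of the 74 members. In 32851 such windows over all genes, 5.20% hold the AP-1 word. Of the 10 Mmp genes on chromosome 9, each with a window, 7 hold it, the 6 tested ones among them. The window at the first listed start of Mmp12 does not. Of the 23 other tested members with a window, 1 holds it (Adam1b). The GC box words stand in 35.7% of all windows and the TATA word, searched on both strands, in 13.6%. A word in a window is a description of sequence and not a measurement of binding.

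These 6 neighbours moved in different directions. Mmp13 was below the limit on all control arrays (7.03, 7.12 and 7.25) and lay between 7.63 and 8.81 in mutant intact (median 8.29) and between 7.70 and 8.76 in mutant castrated (median 8.04). Every mutant array exceeded every control array. It rose at least 1.74-fold in mutant intact (log2 fold change 1.04, SE 0.25, with an adjusted p of 0.00377) and at least 1.63-fold in mutant castrated. Its fellow collagenase Mmp1a, whose probes may also read its close copy Mmp1b, went the other way. It measured 8.16, 8.04 and 8.25 in control, 7.59 to 7.95 in mutant intact (median 7.81) and 7.45 to 8.02 in mutant castrated (median 7.63), with no overlap. The decrease in mutant intact was 1.29-fold (log2 fold change -0.36, SE 0.12, limma adjusted p = 0.0225). It was not called without control replicate 1 (adjusted p = 0.0646) or 3 (0.0981), nor with cyclic loess (0.101), nor by a second Mmp1a probe (-0.09, adjusted p = 0.464). In mutant castrated Mmp1a fell 1.36-fold (log2 fold change -0.44, SE 0.12, limma adjusted p = 0.00695). That call was kept in 28 of 29 alternatives, but the second probe did not show it (-0.06, limma adjusted p = 0.637).

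Mmp3, which cuts proteoglycans, laminin and other pro-Mmps, measured 6.87, 6.92 and 7.06 in control, below the limit on each array. It lay between 7.42 and 9.15 in mutant intact (median 8.04) and between 7.60 and 10.46 in mutant castrated (median 8.07). Although neither group overlapped control, the spread within them was wide, and Mmp3 was called in mutant castrated (at least 2.13-fold, log2 fold change 1.52, SE 0.52, limma adjusted p = 0.0284) and not in mutant intact (1.12, limma adjusted p = 0.0982). The castrated call was lost without any 1 of the control arrays (adjusted p = 0.0824, 0.0749 and 0.064) or castrated replicate 4 (0.0516). Without the castrated animals with IDs above 4000, replicates 4 to 6, the log2 fold change fell to 0.83 (adjusted p = 0.0886). The mutant intact value passed without castrated replicate 6 (0.0182) or without the castrated animals with IDs above 4000 (0.0117). In mutant intact Mmp3 also passed with only the groups compared (0.0201) and with normexp (0.0091). Of its other probes in mutant castrated, 1 was called (1.36, limma adjusted p = 0.0244) and 1 was not (0.71, limma adjusted p = 0.0612). Mmp12, a product of macrophages, measured 7.30, 7.32 and 6.97 in control, 7.38 to 9.71 in mutant intact (median 7.68) and 7.66 to 9.36 in mutant castrated (median 8.55). Its groups did not overlap control either. It rose at least 2.18-fold in mutant castrated (log2 fold change 1.31, SE 0.45, limma adjusted p = 0.0271) and was not called in mutant intact (0.80, limma adjusted p = 0.166). The castrated call was lost without any 1 control array (adjusted p = 0.0583 to 0.0945) or without castrated replicate 4 or 6 (0.0516 and 0.0504), and without the 3 animals with IDs above 4000 (1.06, adjusted p = 0.12).

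Mmp7, an epithelial protease that cuts E-cadherin and releases cell-surface ligands, was bright in control at 12.16, 11.99 and 11.67. It lay between 10.13 and 11.48 in mutant intact (median 10.96) and between 9.34 and 11.60 in mutant castrated (median 10.70), below all control arrays. It fell 2.62-fold in mutant castrated (log2 fold change -1.39, SE 0.45, limma adjusted p = 0.0207). In mutant intact the log2 fold change was -1.04 (limma adjusted p = 0.0757, or 0.0454 without castrated replicate 3 and 0.0177 with only the groups compared). The castrated call was lost without control replicate 1 (adjusted p = 0.0786) or 2 (0.0608). Mmp10, close to Mmp3 in sequence, stayed within 7.00 to 7.61 on all 15 arrays and was not called (log2 fold change 0.13, limma adjusted p = 0.431). Outside chromosome 9, the stromelysin-related Mmp11, activated inside the cell by furin and typical of stroma around epithelial tumours, was below the limit in control (7.20, 7.19 and 7.38). It lay between 7.71 and 8.62 in mutant intact (median 8.03) and between 8.01 and 8.88 in mutant castrated (median 8.50), above all control arrays. It rose at least 1.64-fold in mutant intact (log2 fold change 0.84, SE 0.20, with an adjusted p of 0.00303) and at least 2.09-fold in mutant castrated. The remaining Mmp19 and the epidermal Mmp28 were not called, at log2 fold changes of 0.03 and -0.26 in mutant intact (limma adjusted p = 0.846 and 0.0568). Mmp28 passed without control replicate 3 (0.00228) or mutant intact replicate 1 (0.0483), and with array weights (0.0432). In mutant castrated it passed without control replicate 3 (0.00262).

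The 4 Timp inhibitors were all tested, and 3 rose in mutant intact prostate. Timp2, which inhibits Mmp2 and also carries pro-Mmp2 to Mmp14 for activation, measured 11.32, 11.82 and 11.61 in control. It lay between 13.10 and 13.37 in mutant intact (median 13.22) and between 13.17 and 13.53 in mutant castrated (median 13.33). Both mutant groups were tight and lay far above control. Timp2 rose 3.13-fold (log2 fold change 1.65, SE 0.11, limma adjusted p = 1.26e-08) and 3.35-fold. Timp1, an inducible inhibitor that also binds pro-Mmp9, measured 8.79, 9.24 and 8.56 in control, 9.65 to 12.98 in mutant intact (median 10.97) and 9.94 to 12.13 in mutant castrated (median 10.93). The mutant arrays spread over more than 2 log2 units but none reached down to control. Timp1 rose 5.18-fold in mutant intact (log2 fold change 2.37, SE 0.62, with an adjusted p of 0.006) and 4.17-fold in mutant castrated (limma adjusted p = 0.014, or 0.0571 without control replicate 3 and 0.0553 without the castrated animals with IDs above 4000). A second Timp1 probe also rose in mutant intact (2.40, limma adjusted p = 0.00724).

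Timp4, a small family member best known from heart and other muscle, measured 7.47, 7.81 and 7.93 in control. It lay between 8.49 and 11.06 in mutant intact (median 10.35) and between 8.20 and 10.30 in mutant castrated (median 8.71). No mutant array overlapped control, but the mutant groups overlapped each other. Timp4 rose 5.24-fold in mutant intact (log2 fold change 2.39, SE 0.53, with an adjusted p of 0.00189). In mutant castrated the log2 fold change was 1.34 (limma adjusted p = 0.0524), and it passed without mutant intact replicate 1 (0.018) or 5 (0.0472), or castrated replicate 3 (0.0348), and under 6 other filters, scalings or fits (0.0232 to 0.0495). Timp3, which binds to the matrix and also inhibits Adam17 and Adamts4, measured 11.22, 11.08 and 11.30 in control, 11.08 to 12.31 in mutant intact (median 11.80) and 11.45 to 12.27 in mutant castrated (median 11.87). The mutant intact arrays reached down to control, whereas the castrated arrays did not. It was not called in mutant intact (log2 fold change 0.52, limma adjusted p = 0.102, or 0.0319 without mutant intact replicate 6). It was called in mutant castrated (1.61-fold, log2 fold change 0.68, limma adjusted p = 0.0344). That call was lost without any 1 control array (adjusted p = 0.0632 to 0.111) or without castrated replicate 2, 3 or 6 (0.0575 to 0.0654). Neither dimmer probe showed it (-0.15 and -0.03 in mutant castrated, limma adjusted p = 0.0924 and 0.902), and with the probes averaged the log2 fold change was 0.17 (adjusted p = 0.331). With no filter the adjusted p was 0.056.

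The stretches before the start of the 3 Timp genes that rose are shown in the same way. Timp1 and Timp2 hold a GC box word in the 120 bases, and the Timp4 stretch holds none of the 3 words searched.
Timp1 (chrX:20870046-20870165, plus strand): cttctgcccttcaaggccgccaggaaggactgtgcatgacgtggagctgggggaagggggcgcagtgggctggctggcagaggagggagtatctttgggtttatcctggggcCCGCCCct
Timp2 (chr11:118355412-118355531, minus strand): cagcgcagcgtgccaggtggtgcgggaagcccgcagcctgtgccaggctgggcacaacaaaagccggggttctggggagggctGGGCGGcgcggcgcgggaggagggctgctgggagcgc
Timp4 (chr6:115252206-115252325, minus strand): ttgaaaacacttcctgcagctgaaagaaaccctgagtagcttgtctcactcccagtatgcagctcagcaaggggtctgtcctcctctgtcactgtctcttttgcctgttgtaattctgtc

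**Figure D3:**
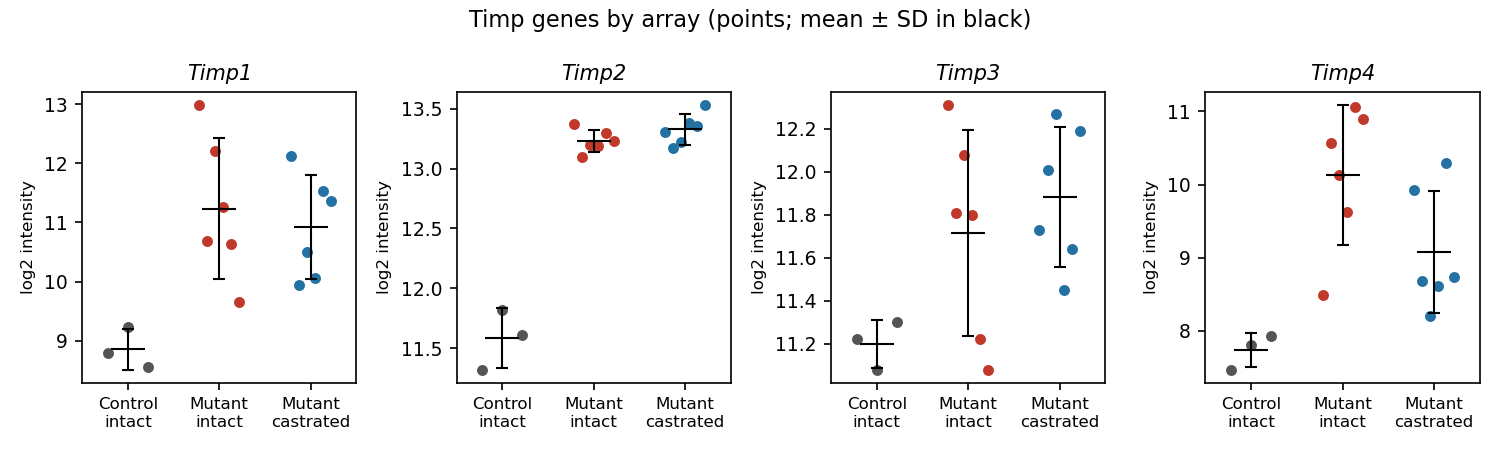
Log2 intensity of the 4 Timp genes on each array (points), by group (control intact n = 3, mutant intact n = 6, mutant castrated n = 6), with mean ± SD in black. Timp2 is tight and high in both mutant groups, Timp1 spreads from 9.65 to 12.98 in mutant intact, and 4 of 6 castrated arrays lie below 9 for Timp4.

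Timp4 was also among the 6 members with the smallest unadjusted p between mutant castrated and mutant intact prostate, none of which was called. Its log2 fold change was -1.05 (SE 0.43, limma adjusted p = 0.257). Castrated replicates 1 and 5 measured 9.92 and 10.30, within the mutant intact range, and replicates 2, 3, 4 and 6 measured 8.68, 8.20, 8.61 and 8.74. Mutant intact replicate 1, at 8.49, lay with the latter. The same 5 arrays were low for Msmb, an androgen-dependent secretory gene chosen after its values were seen, at 7.11 to 7.39. The other 7 mutant arrays lay between 10.47 and 12.85 for Msmb, and all 7 were above 9.6 for Timp4. Control arrays were high for Msmb (9.45 to 14.31) and low for Timp4, so the 2 genes did not run together across genotypes. Whether androgen response accounts for the Timp4 values was not tested. With array weights Timp4 was called (-1.39, limma adjusted p = 0.0458). The weights were lowest on mutant intact replicate 1 (0.369) and castrated replicates 5 (0.575) and 1 (0.712), which ran against the difference. The larger value follows from weighing these arrays less, so the call supports nothing.

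The other 5 of these members were Mmp24 (log2 fold change 0.20), Adam28 (-0.67), Adamts4 (0.37), Mmp9 (0.55) and Mmp15 (0.31). Their limma adjusted p-values lay between 0.224 and 0.277. Adam28, which is found on lymphocytes and epithelium and sheds IGF-binding proteins, measured 7.96, 7.59 and 8.07 in control and 8.09 to 9.20 in mutant intact (median 8.57). In mutant castrated it measured 8.40, 8.51, 8.29, 7.13, 8.28 and 7.29 in replicates 1 to 6. Castrated replicates 4 and 6 were the lowest of all 15 arrays and replicate 4 was below the background limit. These arrays were also the lowest mutant arrays for the interferon-induced gene Ifit3, at 10.60 and 11.64 against 13.09 to 14.64 on the other 10 mutant arrays, a gene chosen after its values were seen. Its part in the Adam28 values was not tested. Adam28 did not pass in mutant intact (log2 fold change 0.78, limma adjusted p = 0.0617, with no overlap with control). It passed without mutant intact replicate 1 (0.0345), castrated replicate 4 (0.0367) or castrated replicate 6 (0.0484). Adam28 also passed without the castrated animals with IDs above 4000 (0.015), with only the groups compared (0.0282), cyclic loess (0.0257) and array weights (0.039).

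**Figure D4:**
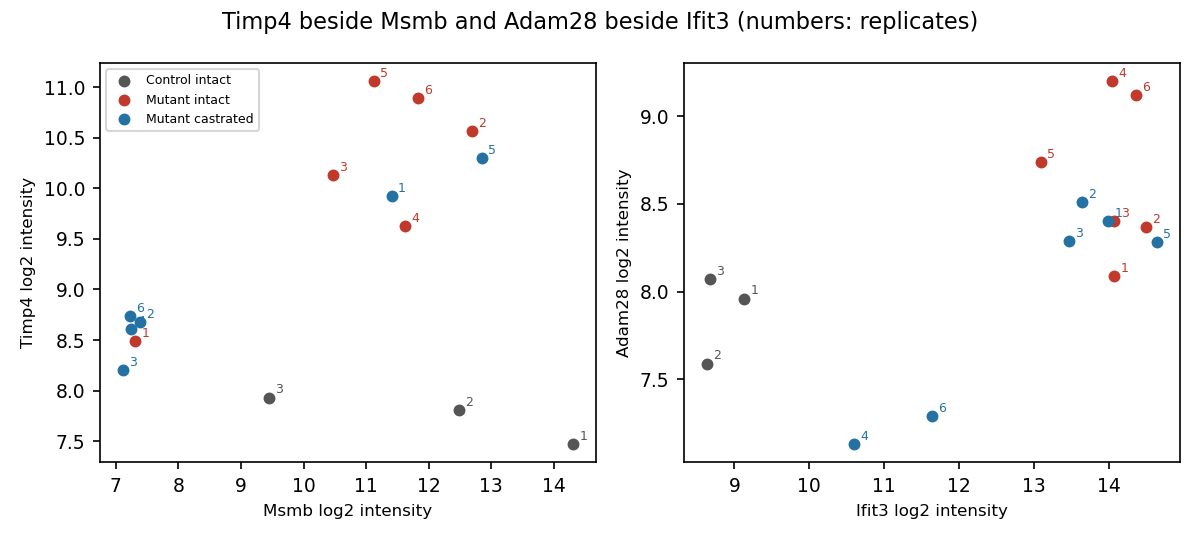
Log2 intensity of Timp4 against Msmb (left) and of Adam28 against Ifit3 (right), 1 point per array, with control intact in grey (n = 3), mutant intact in red (n = 6), mutant castrated in blue (n = 6) and replicate numbers beside the points. The mutant arrays with Msmb below 7.4 have Timp4 below 9, and castrated replicates 4 and 6 are the lowest mutant arrays for both Adam28 and Ifit3.

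Adam17, which releases tumour necrosis factor and several ligands of the EGF receptor, measured 9.44, 9.54 and 9.70 in control, 9.87 to 10.63 in mutant intact (median 10.02) and 9.67 to 10.48 in mutant castrated (median 10.06). Mutant intact arrays all exceeded control. It rose 1.46-fold in mutant intact (log2 fold change 0.55, SE 0.18, with an adjusted p of 0.0208) and 1.46-fold in mutant castrated (limma adjusted p = 0.022). Without control replicate 1 or 2 the adjusted p was 0.0866 or 0.0616 in mutant intact and 0.0903 or 0.0635 in mutant castrated. A dim second probe was not called (0.32, limma adjusted p = 0.337), and with the probes averaged the castrated call was lost (0.0506). The related Adam10, the main sheddase of Notch receptors and E-cadherin, was near the limit. It measured 7.19, 7.26 and 7.14 in control, 7.14 to 7.55 in mutant intact (median 7.38) and 7.33 to 7.55 in mutant castrated (median 7.48). It was at least 1.07-fold higher in mutant castrated (limma adjusted p = 0.0165), which was not called without control replicate 1 (0.0527) or 3 (0.0683), nor without the castrated animals with IDs above 4000 (0.0762). A dimmer Adam10 probe was not called (0.17, limma adjusted p = 0.097). In mutant intact Adam10 was not called (0.17, limma adjusted p = 0.122), and passed without mutant intact replicate 3 (0.035).

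Adam9, a widely expressed sheddase, fell. It measured 10.84, 10.60 and 10.68 in control, 9.77 to 10.43 in mutant intact (median 10.04) and 9.91 to 10.65 in mutant castrated (median 10.30), and only the castrated arrays overlapped control. The decrease was 1.51-fold in mutant intact (log2 fold change -0.60, SE 0.17, with an adjusted p of 0.01, or 0.0535 without control replicate 1). In mutant castrated it was 1.35-fold (limma adjusted p = 0.0491), a call lost without any 1 control array, mutant intact replicate 2, 4 or 6, or castrated replicate 1, 2, 3 or 4 (adjusted p = 0.0555 to 0.17). It was also lost with no filter (0.0736), median centring (0.0505), cyclic loess (0.0951) and normexp (0.0605). Adam15, bound to integrins at cell junctions, measured 10.36, 10.67 and 10.19 in control and 10.91 to 12.46 in mutant intact (median 10.94), all above control. It was not called (log2 fold change 0.79, limma adjusted p = 0.0572), but was without mutant intact replicate 1 (0.0426) or castrated replicate 5 (0.0498). Adam15 was also called without castrated replicates 1 and 5 together (0.045) and with array weights (0.0282). Adam8, found on myeloid cells, was below the limit in control (7.19, 7.23 and 7.25) and lay between 7.49 and 10.08 in mutant intact (median 7.77). It was not called (0.89, limma adjusted p = 0.105). Without mutant intact replicate 1 the log2 fold change was 0.50 and was called (0.0217). With normexp it was 1.62 and was also called (0.0378). Adam33, typical of smooth muscle and fibroblasts, and the catalytically inactive Adam23 were not called either. With array weights Adam33 was called lower in mutant intact (-0.39, limma adjusted p = 0.0473).

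Mutant intact replicate 1 stood apart for several of these genes. It was the highest of all 15 arrays for Adam8 (10.08), Mmp12 (9.71), Adam15 (12.46), Adam17 (10.63), Timp1 (12.98) and Mmp13 (8.81), and the lowest mutant array for Mmp15 (11.70). On this array 13 of 14 macrophage markers were tested and summed to an intensity of 149416. The sum was 20578 to 36640 on the remaining mutant intact arrays, 27222 to 38711 in mutant castrated and 5187 to 6540 in control. Of these markers 11 of 13 rose in each mutant group, and Itgam was not tested. Their part in the values of these genes was not tested. Without this array Adam8 and Adam15 were called in mutant intact, and Adam17, Timp1 and Mmp13 kept their calls. Mmp12 was not called in mutant intact with or without it, and its log2 fold change fell from 0.80 to 0.46. Other marker sums were also higher in the mutant groups. Of 10 basal epithelial markers, all tested, 8 were higher and 2 lower in mutant intact, and 8 higher and 0 lower in mutant castrated. They summed to 7995 to 11116 in control and 42696 to 69369 on the mutant arrays. T and NK cell markers (7 of 10 tested, 5 higher in mutant intact and 7 in mutant castrated) summed to 1412 to 1519 and 2277 to 8287. Their part in the members' values was not tested.

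**Figure D5:**
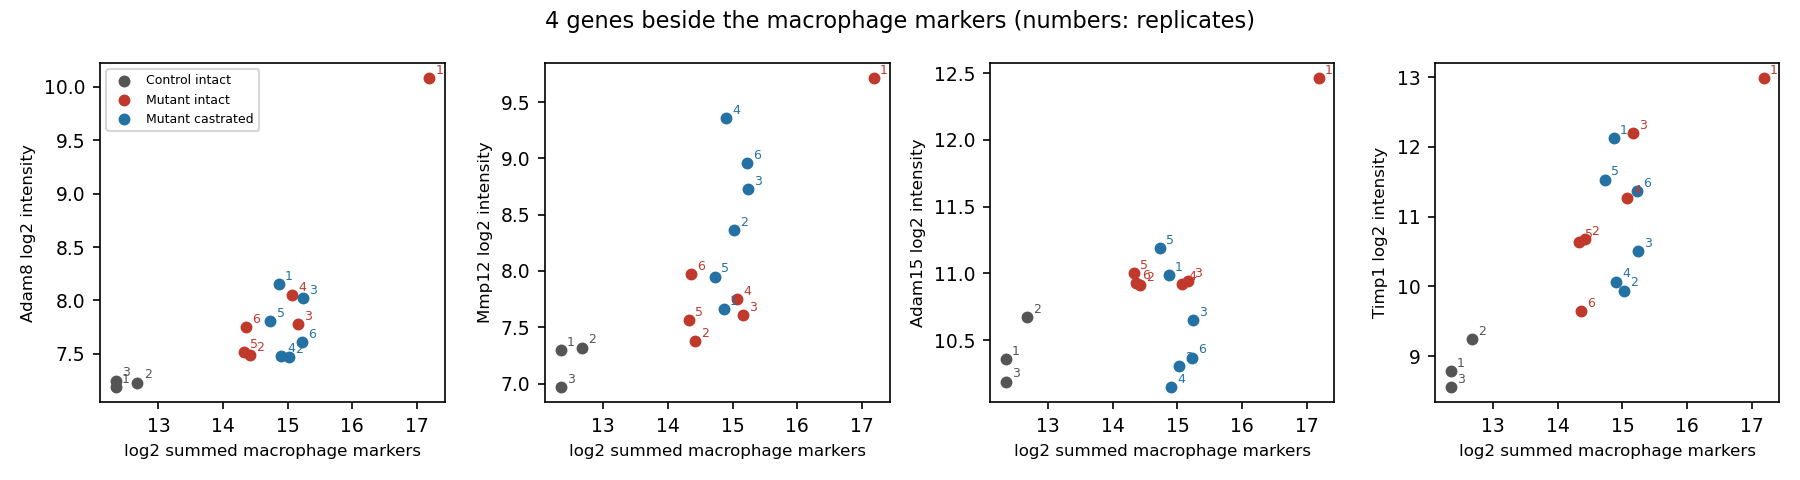
Log2 intensity of Adam8, Mmp12, Adam15 and Timp1 against the log2 of the summed intensity of 13 macrophage markers, 1 point per array, with control intact in grey (n = 3), mutant intact in red (n = 6), mutant castrated in blue (n = 6) and replicate numbers beside the points. Mutant intact replicate 1 lies alone at the upper right of each panel.

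Of the 18 ADAMs known from testis and epididymis, 4 were tested and 2 fell, both by little. Adam4 measured 7.76, 7.90 and 8.25 in control, 7.46 to 7.70 in mutant intact (median 7.65) and 7.35 to 7.88 in mutant castrated (median 7.61), where it overlapped control. It fell 1.28-fold in mutant intact (log2 fold change -0.35, SE 0.12, with an adjusted p of 0.0297). This was not called without control replicate 3 (0.204) or mutant intact replicate 4 (0.0569). In mutant castrated it fell 1.29-fold (limma adjusted p = 0.0236, or 0.171 without control replicate 3). With probes averaged or cyclic loess neither call held (0.157 and 0.09 in mutant intact, 0.206 and 0.0699 in mutant castrated), and the second was lost with only the groups compared (0.0564). Of 2 further Adam4 probes, 1 went the opposite way (0.02) and neither was called (limma adjusted p = 0.877 and 0.67). Adam6a measured 7.89, 7.56 and 7.39 in control and 7.02 to 7.37 in mutant intact (median 7.21), with 1 of 6 arrays above the limit in either mutant group. It fell 1.32-fold in mutant intact (log2 fold change -0.40, SE 0.10, with an adjusted p of 0.00445) and 1.28-fold in mutant castrated (adjusted p = 0.00849, or 0.077 without control replicate 1). Its probe may also read the close copy Adam6b. Of 10 testis and germ cell markers 4 were tested, and their sum was 1194 to 1588 in control and 551 to 702 on the mutant arrays. Their median log2 fold change was 0.12 in mutant intact and 0.04 in mutant castrated. Genes near background in control can hardly fall further, so this median does not tell whether the list fell. The acrosomal gene Acrv1 was the 1 of these 4 that was called (6.40-fold lower in mutant intact), while Prm1, Prm2, Ddx4, Sycp3, Odf1 and Akap4 were not tested. Its part in the Adam4 and Adam6a values was not tested. Adam32 and Adam1b were not called, although Adam32 was higher in mutant castrated without control replicate 1 (adjusted p = 0.0261).

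Of the 12 tested ADAMTS genes, 1 rose in mutant intact and 3 in mutant castrated prostate, all of the proteoglycan-cleaving kind. Adamts15, which cuts versican and aggrecan, measured 7.32, 7.79 and 7.39 in control, 7.90 to 8.36 in mutant intact (median 8.15) and 7.84 to 8.26 in mutant castrated (median 7.98). Both mutant groups lay above control. It rose 1.55-fold in mutant intact (log2 fold change 0.63, SE 0.12, with an adjusted p of 0.000739) and 1.42-fold in mutant castrated. Adamts4, an aggrecanase, measured 7.51, 7.02 and 6.96 in control, 7.25 to 7.87 in mutant intact (median 7.51) and 7.50 to 8.20 in mutant castrated (median 7.92). Control replicate 1 overlapped both mutant groups. It rose 1.66-fold in mutant castrated (log2 fold change 0.73, SE 0.18, limma adjusted p = 0.0042). In mutant intact it gave 0.36 (limma adjusted p = 0.12, or 0.0459 without control replicate 1). Adamts9, which cuts versican, measured 8.14, 8.48 and 8.34 in control, 7.98 to 9.47 in mutant intact (median 9.01) and 8.73 to 9.67 in mutant castrated (median 9.04). Only the castrated arrays lay clear of control. It rose 1.73-fold in mutant castrated (log2 fold change 0.79, SE 0.29, limma adjusted p = 0.0354), a call lost without any 1 control array (0.0575 to 0.124) or castrated replicate 3 or 6 (0.0672 and 0.0622). It was also lost with no filter (0.0587), with probes averaged (0.0862) and without the castrated animals with IDs above 4000 (0.0893). In mutant intact it passed without mutant intact replicate 6 (0.0291). A dimmer probe read Adamts9 at -0.02 in mutant intact and was not called.

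The procollagen N-propeptidase Adamts2, which trims fibrillar collagens so that they can form fibres, measured 8.48, 9.20 and 9.09 in control. It lay between 8.95 and 11.39 in mutant intact (median 10.14) and between 9.13 and 10.45 in mutant castrated (median 9.76), overlapping control. It was not called in mutant intact (log2 fold change 1.18, limma adjusted p = 0.0521), but passed without mutant intact replicate 5 (0.0198) or 6 (0.017), its lowest arrays. Adamts2 also passed with stricter background limits (0.046 and 0.0492), cyclic loess (0.0413), normexp (0.0489) and array weights (0.0309). Mutant intact replicate 3, the array with the highest fibroblast, smooth muscle and seminal vesicle sums of its group, was the highest for Adamts2 too. Adamts13, which cuts von Willebrand factor, and the 5 tested genes grouped as other ADAMTSs were not called in either comparison with control, nor were Adamts1 and Adamts8. Leaving out 1 array brought a call for Adamts12 (adjusted p = 0.0247 without mutant intact replicate 2 and 0.0423 without 6), Adamts17 (0.0454 without mutant intact replicate 4), Adamts6 (0.0369 without mutant intact replicate 5) and Adamts1 in mutant castrated (0.0279 without control replicate 1). Adamts12 was also called in mutant intact with cyclic loess (0.0345) and normexp (0.0446). In mutant castrated, Adamts1 was called with cyclic loess (0.0413). There Adamts10 was called with array weights (0.0425) and without castrated replicates 1 and 5 together (0.0353).

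Genes that work with these proteases were followed in lists chosen by role. Of 13 tested activators and cell-surface regulators of Mmps, 8 rose and 1 fell in mutant intact prostate (median log2 fold change 0.95, against -0.04 for all genes). Among them were Lcn2, which binds Mmp9 (25.7-fold), the hyaluronan receptor Cd44, which holds Mmp9 and Mmp14 at the surface (9.75-fold), osteopontin (Spp1, at least 6.40-fold) and the plasminogen activator Plat (5.22-fold). In mutant castrated again 8 rose and 1 fell. Of 14 tested partners of ADAMs, 8 rose and 3 fell in mutant intact. The tetraspanin Tspan33, which guides Adam10, rose 5.29-fold. Of other such tetraspanins, named here after their values were seen, Tspan14 rose 2.15-fold and Tspan17 rose 2.63-fold. Tspan15 fell 2.83-fold in mutant intact (limma adjusted p = 5.57e-06) and 3.44-fold in mutant castrated. The invadopodia scaffolds Sh3pxd2a and Sh3pxd2b rose 3.40-fold and 3.27-fold. Frmd8, which stabilises the complex of Adam17 with its iRhom carrier, fell 3.69-fold (log2 fold change -1.88, SE 0.12, limma adjusted p = 7.48e-09). The iRhom genes, named after their values were seen, went the other way. In mutant intact Rhbdf1 rose 1.92-fold (limma adjusted p = 5.35e-06) and Rhbdf2 1.32-fold (0.0123). In mutant castrated Rhbdf1 rose 2.03-fold and Rhbdf2 was not called.

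Of 7 tested inhibitors and inhibitor-like genes outside the Timp family, 1 rose and 2 fell in mutant intact. Serpine2, an inhibitor of thrombin and plasminogen activators rather than of metalloproteases, fell 6.00-fold (log2 fold change -2.59, SE 0.49, limma adjusted p = 0.000572). Pcolce, which enhances procollagen processing by Bmp1, rose 2.83-fold, and Wfikkn1, a myostatin-binding protein, fell 1.34-fold. Of 26 tested substrates released by ADAMs, 12 rose and 1 fell. The transmembrane chemokines Cxcl16 and Cx3cl1 rose 7.66-fold and 5.12-fold and the adhesion molecule Icam1 rose 5.72-fold, while the growth factor precursor Egf fell 8.93-fold. Other ligands of the EGF receptor, named after their values were seen, did not fall. Btc rose 3.28-fold, Areg at least 2.21-fold, Hbegf 1.38-fold and Tgfa, near the background limit, 1.20-fold, and Epgn was not called. Of 20 tested matrix substrates 7 rose and 0 fell, including thrombospondin 2 (Thbs2, 3.66-fold), the laminin chain Lama5 (3.63-fold), Col1a1 (3.38-fold, limma adjusted p = 0.0443) and biglycan (Bgn, 2.70-fold). In mutant castrated 5 of the 20 rose and 0 fell. Of 19 tested AP-1, Ets and NF-kB factors, which regulate many Mmp genes, 13 rose and 1 fell (median 1.32), led by Elf3 (13.1-fold), Fosl2 (7.79-fold), Relb (4.05-fold) and Runx1 (3.15-fold). These counts are descriptions beside the shares of all tested genes that were called. In mutant intact these were 43.7%, with 18.3% higher and 25.4% lower. In mutant castrated they were 44.7%, with 20.1% higher and 24.7% lower. The lists share the control arrays and the differences in cell markers given above.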

How the data were processed

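RNA from 15 anterior prostates was measured on Illumina arrays, 1 mouse per array. The RNA was prepared with MagMAX-96, checked on a Bioanalyser and labelled with TotalPrep-96, per the labels' protocols. The deposited intensity values are linear, and the sources used here do not give the authors' normalization and background correction. Background had not been subtracted to 0, which makes folds of dim genes too small. A second deposited file, of unnormalized signals, has 15 columns named by chip position, which could not be tied to mice. They were not used, so the chip could not be tested as a batch, and only probe names were taken from that file.

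The background limit was each array's 95th percentile of 1491 probes of olfactory and vomeronasal receptors. Probes above it on at least 3 arrays were tested (24396 probes, 16632 genes, brightest probe per gene). The log2 of the deposited intensities was modelled by limma (version 3.58.1, R version 4.3.3) from all arrays, with a mean for each group (12 residual degrees of freedom), moderated two-sided tests and Benjamini-Hochberg adjustment over all tested genes. Every p is limma's. Where each array of the dimmer group was under the limit, the fold is given as "at least", against the higher of limit and value per array. The number of arrays limits the precision. The fit was tested on simulated data. Alternatives were other background limits, no filter, averaged probes, quantile, median, cyclic loess and normexp scaling, trend and robust options, array weights, only the groups compared, and fits without single or several arrays.

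Members and lists were chosen with earlier results of these data known. Named in full were each Timp, the members called in mutant intact against control (20 at most), the 6 with the smallest p between mutant groups, and those whose probes disagree. Up to 4 more per role were named by brightness, and up to 4 called genes per list by fold. Others named were chosen after their values were seen. The genes altered by the genotype are not reported here. Of the probes, 7994 carried an older symbol, updated through RefSeq's GRCm38.p6 gene table, which also gave chromosomes.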

Additional observations from a re-analysis of the deposited data

Results flagged for a closer look

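In each mutant group of 6 arrays, the highest or lowest value of each of the 44 tested genes was compared with the spread of the others by Dixon's ratio. Of 88 groups examined, 8 held an array that stood apart, and chance gives about 1 in 20. Of the 8, 5 were in mutant intact replicate 1. There Adam15 measured 12.46 against 10.91 to 11 on the other 5 arrays. Adam17 measured 10.63 against 9.87 to 10.14, Adam8 10.08 against 7.49 to 8.05, and Mmp12 9.71 against 7.38 to 7.97. Mmp15 was low on that array, at 11.70 against 12.32 to 12.64. The remaining 3 lay on different arrays. Mmp17, near background in mutant mice, measured 7.75 in mutant intact replicate 3 against 7.16 to 7.36. Mmp9 measured 9.87 in mutant castrated replicate 6 against 8.51 to 8.84. Adamts6 measured 7.65 in mutant castrated replicate 2 against 7.38 to 7.46.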

How the results depend on the processing

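Over 29 alternatives, 15 of which left out 1 array, Mmp14, Mmp15, Timp2 and Adamts15 were called higher and Mmp17 and Mmp24 lower in both comparisons with control each time. Leaving out the 6 arrays high in the seminal vesicle transcript Pate4 leaves 1 control array, assumed to vary like the others. Calls were then lost in both comparisons with control. In mutant intact these included Timp1, Timp4, Mmp2, Mmp11, Mmp23 and Adam17, at log2 fold changes of 2.34, 2.55, 1.75, 0.74, 0.99 and 0.69. Without the castrated animals with IDs above 4000, 11 rose in mutant castrated, with the calls of Mmp2, Mmp3, Mmp12, Timp1, Adam10 and Adamts9 lost in a fit with 3 fewer arrays. Leaving out 1 array gave 9 to 15 higher and 4 to 7 lower in mutant intact. In mutant castrated it gave 10 (without control replicate 3) to 19 higher and 4 (without control replicate 1) to 7 lower. Between the mutant groups it gave 0 to 0, against 1 with array weights (Timp4) and 2 without castrated replicates 1 and 5 together (Mmp11 and Timp4). Castrated replicates 1 and 5 held the highest Timp4 and the lowest Mmp11 values of the castrated group. After mutant intact replicate 1 they also had the lowest array weights. Larger differences follow from leaving these arrays out or weighing them less, so these calls support nothing. Small log2 fold changes that changed sign were those of Adamts4 in mutant intact (-0.0028) and Adam32 in mutant castrated against control (-0.0625), both without the Pate4-high arrays. Between the mutant groups they were those of Timp1 without mutant intact replicate 1 (0.0367, with -0.629 as the lowest value when 1 array is left out), Timp2 without IDs above 4000 (-0.00027) and Timp3 with probes averaged (-0.0221). The cause of these shifts was not tested. No paired analysis was possible because the labels name no shared litter, batch or day and the replicate numbers follow the order of deposit. The ID of each of the 3 control mice lies within 2 of that of a mutant intact mouse, which the labels do not explain and which was not used as a pairing. The closeness of dim probes to background limits what can be seen of the 30 untested members.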

Other observations

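Metalloproteases outside the named families were followed as a list of relatives, of which 11 were tested, 3 rose and 1 fell in mutant intact prostate, against calls for 43.7% of all tested genes. As a group they were thus not called more often than other genes. The aminopeptidase Anpep, a surface enzyme that trims peptides, rose 14.0-fold (log2 fold change 3.81, SE 0.23, limma adjusted p = 5.92e-09) and 14.9-fold in mutant castrated. Bmp1, the procollagen C-proteinase, rose 6.50-fold and 7.28-fold, and the endothelin-converting enzyme Ece1 rose 2.19-fold in mutant intact. Angiotensin-converting enzyme (Ace) fell 4.43-fold in mutant intact (limma adjusted p = 0.00384) and 7.83-fold in mutant castrated. The neutral endopeptidase Mme, which degrades neuropeptides, fell 4.55-fold in mutant castrated (limma adjusted p = 0.0103). None of these genes was called between the mutant groups.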
